A study of Homo sapiens with 33 samples.

Results

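The 10 genes described here encode 5 glutathione peroxidases (GPX1, GPX2, GPX3, GPX4 and GPX8) and 5 glutathione transferases (GSTP1, GSTO1, GSTM3, GSTA4 and the membrane-bound MGST1). They were found by symbol, 10 of the 29744 genes in the deposited tables. They were selected on measured values, namely the levels of GPX1 in the OVCAR3 ResA and OVCAR3 ResB lines. The contrast of those lines is therefore given as a description with no test, and GPX1 was not tested in any comparison that holds OVCAR3-family libraries.

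Messenger RNA was sequenced in 33 libraries from 11 high-grade serous ovarian carcinoma (HGSOC) cell lines, with 3 replicates per line. The sample labels name the line only, and the study's text gives its role. The 4 platinum-sensitive lines were OVCAR3, OVCAR4, PEA1 and PEO1. Both OVCAR3 and OVCAR4 had been exposed in culture, in separate series named ResA and ResB, to repeated short pulses of cisplatin at rising dose, and each resistant line is the product of 1 such series. PEA2 came from the same patient as PEA1, and PEO4 and PEO6 from the same patient as PEO1, and they are resistant lines of clinical origin. Nothing in the labels says that the replicates were separate cultures, so p-values measure only the spread between these libraries. The libraries held 18058985 to 43394009 estimated counts. In each line of the OVCAR4 family replicate 1 stood apart: its counts differed from those of replicates 2 and 3 by a chi-square per degree of freedom of 152 to 534, against 44.7 to 75.1 between replicates 2 and 3. The same held in OVCAR3 (128 and 188 against 41.5) and OVCAR3 ResA (130 and 201 against 30.6). In OVCAR3 ResB the values with replicate 3 were 248 and 507, against 145 between replicates 1 and 2. In PEA1 those with replicate 2 were 177 and 233, against 36.8 between replicates 1 and 3. Of 9 epithelial and Müllerian carcinoma markers, PAX8, EPCAM, KRT7, KRT8, KRT18 and WFDC2 were above 1 TPM in every line, WT1 was under 1 TPM in 2 lines, and MUC16 and MSLN in 1 each. Summed over 10 leukocyte, endothelial and fibroblast markers, line means ran from 0.77 to 19.4 TPM.

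Glutathione is a small thiol peptide that cells use to detoxify peroxides and reactive chemicals. Glutathione peroxidases spend it to reduce hydrogen peroxide or lipid peroxides, and GPX1, GPX2, GPX3 and GPX4 carry selenocysteine at the active site while GPX8 does not. Glutathione transferases join it to electrophiles, and conjugation of platinum drugs to glutathione is a long-studied route of detoxification in ovarian carcinoma. Levels are given as TPM, a transcript abundance that is per length and scaled to the library and so allows genes to be set side by side. Differences are DESeq2 log2 fold changes ± SE between a pair of lines, with p-values adjusted over all genes of the comparison, and a gene is called where that value is under 0.05.

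The 250 bases before the annotated transcript start are shown for 5 genes on which the results turn. These are GPX1, which was high in OVCAR3 ResA and near 0 in OVCAR3 ResB, and GPX2, which was hardly detected. The others are GSTP1, the most abundant of the 5 transferases, and GSTM3 and GSTA4, which had the largest changes among the tested values. The sequences are from RefSeq, build GRCh38.p14, 5′ to 3′ on the gene's strand, and capitals mark the core of the antioxidant response element, TGACNNNGC, on either strand. NRF2 (NFE2L2) is the factor known for binding that element.
GPX1: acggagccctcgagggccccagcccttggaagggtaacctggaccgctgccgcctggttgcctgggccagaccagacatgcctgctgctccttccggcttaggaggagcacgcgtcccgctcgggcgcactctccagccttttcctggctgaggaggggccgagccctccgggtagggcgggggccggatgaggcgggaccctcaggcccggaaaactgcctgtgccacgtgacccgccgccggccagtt
GPX2: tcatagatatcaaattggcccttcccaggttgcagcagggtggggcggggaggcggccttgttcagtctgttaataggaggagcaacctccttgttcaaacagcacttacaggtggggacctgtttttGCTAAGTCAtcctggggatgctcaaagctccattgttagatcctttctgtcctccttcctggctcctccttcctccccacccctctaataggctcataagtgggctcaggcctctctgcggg
GSTP1: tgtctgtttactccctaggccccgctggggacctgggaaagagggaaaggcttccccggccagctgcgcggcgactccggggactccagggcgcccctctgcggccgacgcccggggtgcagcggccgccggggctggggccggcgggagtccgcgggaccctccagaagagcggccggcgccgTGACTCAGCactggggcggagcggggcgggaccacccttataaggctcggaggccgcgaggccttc
GSTM3: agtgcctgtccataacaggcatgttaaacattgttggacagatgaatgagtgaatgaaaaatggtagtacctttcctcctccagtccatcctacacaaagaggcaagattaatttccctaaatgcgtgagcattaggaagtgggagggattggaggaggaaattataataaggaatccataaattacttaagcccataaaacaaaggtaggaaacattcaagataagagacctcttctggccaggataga
GSTA4: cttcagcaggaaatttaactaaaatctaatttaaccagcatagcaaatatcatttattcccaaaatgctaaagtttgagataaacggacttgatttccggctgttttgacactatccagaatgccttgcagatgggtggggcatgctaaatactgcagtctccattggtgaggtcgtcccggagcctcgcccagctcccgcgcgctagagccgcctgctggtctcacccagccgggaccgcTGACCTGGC
These lie at chr3:49358354-49358603 (minus strand), chr14:64942746-64942995 (minus strand), chr11:67583562-67583811 (plus strand), chr1:109741039-109741288 (minus strand) and chr6:52995285-52995534 (minus strand). The core was found in the windows of GPX2, GSTP1, GSTO1 and GSTA4, and in GSTO1 it occurred at 2 places. Its position was -122 to -114 before the start in GPX2, -66 to -58 in GSTP1 and -9 to -1 in GSTA4. Among all 34788 annotated promoter windows of the same length, 10.9% held it. The motifs were chosen after the sequences had been read. In the GPX1 window an E-box (CACGTG) lay at -24 to -19, a motif that 6.31% of all windows held, and a GC box (GGGCGG) at -75 to -70, which 42.6% held. A GC box was also found for GPX2, GSTP1, GPX3, GPX4, GSTO1 and MGST1. Among the 5 windows shown, a TATA box (TATAA) was found in those of GSTP1 and GSTM3, against 19.0% of all windows, and a CCAAT box (CCAAT) in those of GPX2, GSTM3 and GSTA4, against 32.0%. Of the other 5 genes, GPX8, GSTO1 and MGST1 held TATAA and GPX3, GPX4 and MGST1 held CCAAT in the window of at least 1 annotated start. GC content was 70.8% for GPX1 and 74.8% for GSTP1, above the median of 58% over all windows, and 40.0% for GSTM3. A match is a description of letters and not evidence of binding.

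GPX1, the cytosolic and mitochondrial peroxidase that reduces hydrogen peroxide, separated the OVCAR3 lines. Its libraries were at 56.8, 59.4 and 58.6 TPM in OVCAR3, at 353, 357 and 319 TPM in OVCAR3 ResA and at 0, 0.461 and 0.0828 TPM in OVCAR3 ResB. In counts, the OVCAR3 ResB libraries held 0, 7 and 1, against 674 to 928 in OVCAR3 and 4520 to 4940 in OVCAR3 ResA. No libraries of the 3 lines overlapped. The mean was 58.3 ± 1.35 TPM (SD, n = 3) in OVCAR3, 343 ± 20.8 in OVCAR3 ResA and 0.181 ± 0.246 in OVCAR3 ResB, so that the ratio of OVCAR3 ResB to OVCAR3 ResA was -10.89 on the log2 scale. It rests on 8 counts in OVCAR3 ResB, 7 of them in replicate 2. As these levels chose the genes, the ratio has no test.

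Line means of GPX1 in the other 8 lines all lay between those of OVCAR3 and OVCAR3 ResA, from 178 ± 20.2 TPM in OVCAR4 ResA to 335 ± 51.7 TPM in PEO1. OVCAR3 ResA was the highest of the 11 lines, but its libraries overlapped those of PEO1, the next. OVCAR3 was itself low, at the second lowest place in the order, and no library of OVCAR3 overlapped one of any other line.

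GPX1 lies at chromosome 3, 49357176 to 49358353, with RHOA starting 791 bases beyond its end in the annotation. Its annotated neighbours, 5 on each side with a row in the table, were looked at in the same libraries. RHOA, a small GTPase, was at 299.6 ± 97.4 TPM in OVCAR3, 366 ± 66.7 in OVCAR3 ResA and 379 ± 194 in OVCAR3 ResB (SD, n = 3). USP4, a ubiquitin protease on the other side, was at 12.1, 16.7 and 14.1 TPM in the same order. Their libraries overlapped between OVCAR3 ResA and OVCAR3 ResB. C3orf84 and MIR4271 were listed at 0 throughout, and CCDC36 was at 0.0107 TPM or below on average. Over the neighbours with a value, among them also C3orf62, TCTA, AMT, NICN1 and DAG1, the OVCAR3 ResB to OVCAR3 ResA ratio of mean TPM ran from 0.749 to 1.51, while that of GPX1 was 0.000528. The 1.51 belonged to CCDC36, which was near 0 in both lines, and the next highest was 1.27 for DAG1. No neighbour came near the difference of GPX1. DNA copy number, methylation and protein were not measured in these files.

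**Figure D1:**
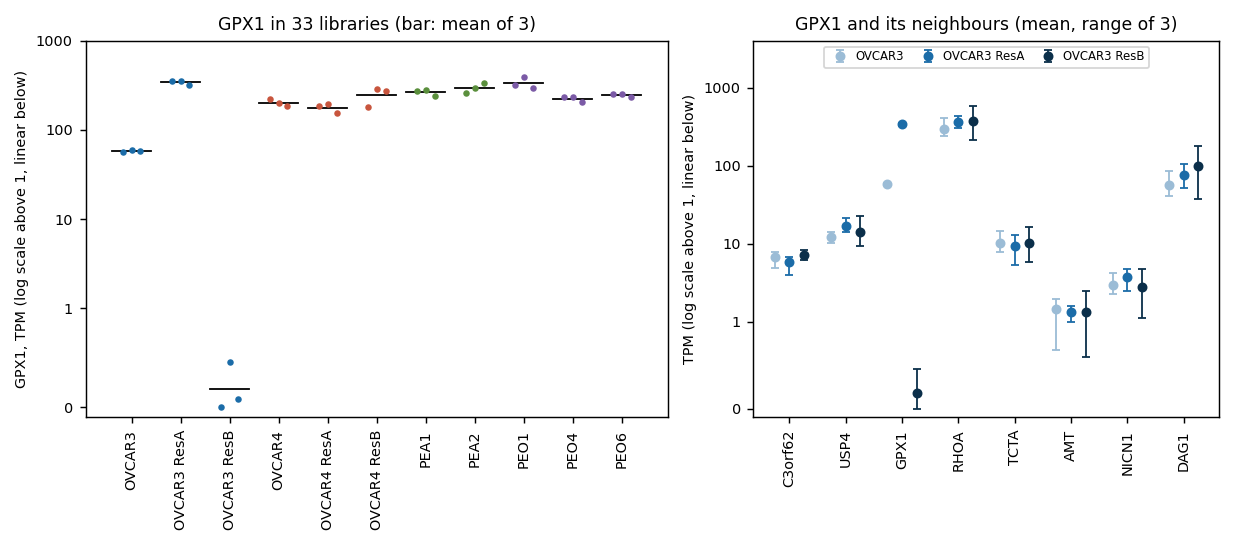
Left, GPX1 in TPM (logarithmic above 1, linear below) in each of the 33 libraries by line, with a bar at the mean of 3; right, GPX1 and the neighbours above 1 TPM in the OVCAR3 family, as means with the range of 3 libraries. The OVCAR3 ResB libraries of GPX1 sit between 0 and 0.461 TPM and those of OVCAR3 ResA between 319 and 357, while the ranges of each of the 7 neighbours overlap between those lines.

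Among the 14206 genes with a mean of at least 1 TPM, the 5 whose log2(TPM + 1) line means followed GPX1 most closely over the 11 lines were LCMT2 (Pearson r = 0.82), HIST1H4C (0.817), HSD17B8 (0.812), RABAC1 (0.80) and MAD2L1BP (0.797). LCMT2 and HIST1H4C were listed at 0 in OVCAR3 ResB and HSD17B8 was at 0.14 TPM there, against 4.03, 57.1 and 7.99 TPM in OVCAR3 ResA. Lines of a family share an origin, so these 11 points are not independent. Over the 8 lines outside the OVCAR3 family r was negative for all 5, from -0.76 for MAD2L1BP to -0.17 for RABAC1, and the likeness over 11 lines therefore rested on the OVCAR3 family. HIST1H4C has near-identical copies whose reads may be split between them.

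Outside the OVCAR3 family GPX1 was called in 1 of the 5 resistant-sensitive pairs in which it was tested, PEO4 against PEO1. The PEO1 libraries were at 321, 392 and 292 TPM and the PEO4 libraries at 233, 232 and 206, with no overlap, a log2 fold change of -0.54 ± 0.187 (adjusted p = 0.0148). The call was lost without replicate 1 (adjusted p = 0.183) and without replicate 2 (adjusted p = 0.339). Fold changes in the other 4 pairs were -0.72 ± 0.314 in OVCAR4 ResA, -0.31 ± 0.292 in OVCAR4 ResB, 0.27 ± 0.256 in PEA2 and -0.44 ± 0.228 in PEO6, none of them called. In OVCAR4 ResA the fall passed the threshold without replicate 1 (adjusted p = 6.97e-06) and with no replicate block (adjusted p = 0.0227). At the level of lines, without the OVCAR3 family, resistant and sensitive lines differed by -0.32 ± 0.322 (adjusted p = 0.999).

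GPX4 (chromosome 19, 1103994 to 1106779) is the peroxidase that reduces lipid peroxides within membranes and is known for restraining ferroptosis. It was the most abundant of the 5 peroxidases described here in 8 of the 11 lines. GPX1 was so in the other 3, PEO1, PEO4 and PEO6. Line means ran from 164 ± 31.2 TPM in PEO6 to 629 ± 30.1 TPM in OVCAR3 ResB, a 3.84-fold span. In OVCAR3 ResB, where GPX1 was near 0, the GPX4 libraries were at 615, 664 and 609 TPM. Those of OVCAR3 ResA were at 386, 441 and 448 and those of OVCAR3 at 286, 287 and 321, so that none of the 3 lines overlapped another. The difference from OVCAR3 was 0.37 ± 0.0986 in OVCAR3 ResA (adjusted p = 0.000657; 0.17 without the replicate block) and 0.99 ± 0.341 in OVCAR3 ResB (adjusted p = 0.0505), just over the threshold. That value was under it without the block (adjusted p = 0.0138) and without replicate 3 (adjusted p = 1.92e-06).

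GPX4 moved in opposite directions in the clinically derived families. It was higher in PEA2 than in PEA1, with libraries at 443, 455 and 476 TPM against 327, 276 and 318 (log2 fold change 0.70 ± 0.223, adjusted p = 0.0053). Leaving out replicate 1 ended that call (adjusted p = 0.0953). It was lower in both resistant lines of the PEO family. PEO1 libraries were at 301, 280 and 312 TPM, PEO4 libraries at 202, 184 and 171 and PEO6 libraries at 131, 168 and 193, and the latter lines overlapped each other but not PEO1. The fold change was -0.65 ± 0.165 in PEO4 (adjusted p = 0.000464) and -0.89 ± 0.212 in PEO6 (adjusted p = 0.000151). These comparisons share the PEO1 libraries. In PEO4 the call was lost without replicate 1 (adjusted p = 0.0609) or replicate 2 (adjusted p = 0.0522). PEO4 and PEO6 themselves differed by -0.24 ± 0.284, which was not called. In the OVCAR4 family the libraries were at 359, 426 and 374 TPM in OVCAR4, 338, 384 and 390 in OVCAR4 ResA and 404, 513 and 544 in OVCAR4 ResB. Both resistant lines overlapped OVCAR4, and GPX4 was not called in either (-0.59 ± 0.317 and -0.26 ± 0.326). Without replicate 1, DESeq2 called it lower in both (adjusted p = 4.04e-05 and 0.00992). In TPM, however, replicates 2 and 3 of OVCAR4 ResB (513 and 544) were above those of OVCAR4 (426 and 374). Those of OVCAR4 ResA (384 and 390) lay between the OVCAR4 values, so these calls depended on the scale.

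GPX3 (chromosome 5, 151020591 to 151028988), the secreted plasma peroxidase, had the widest spread of the detected genes after GPX1. Line means ran from 6.32 ± 0.874 TPM in PEA2 to 368 ± 85.3 TPM in OVCAR4, a 58.2-fold span, and all 3 OVCAR4-family lines stood above the other 8 lines. It was called in 5 of 7 resistant-sensitive pairs, lower in 3 and higher in 2, the most of any of the 10 genes. Within the OVCAR3 family the resistant lines went apart. OVCAR3 libraries were at 30.9, 29.7 and 29.4 TPM, OVCAR3 ResA libraries at 20.2, 19.4 and 16.6 and OVCAR3 ResB libraries at 97.5, 59.3 and 119, with no overlap. The fold change was -0.83 ± 0.14 in OVCAR3 ResA (adjusted p = 3.36e-08) and 1.45 ± 0.323 in OVCAR3 ResB (adjusted p = 0.000231). In OVCAR3 ResB it missed the threshold without replicate 1 (adjusted p = 0.076) or replicate 2 (adjusted p = 0.054).

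The same gene separated the PEO lines. PEO1 libraries were at 22.8, 19.5 and 13.6 TPM and PEO6 libraries at 12.3, 12.9 and 25.1, which overlapped. PEO4 libraries were at 106, 93.1 and 58.5 TPM, above all of them. The increase in PEO4 was 2.23 ± 0.178 (4.68-fold, adjusted p = 4.61e-34), the change in PEO6 was -0.22 ± 0.326 and not called, and PEO6 against PEO4 gave -2.45 ± 0.346 (adjusted p = 7.92e-11). In PEA2 the libraries were at 7.23, 5.49 and 6.24 TPM against 35.0, 16.5 and 41.4 in PEA1, a fall of 4.22-fold (log2 fold change -2.08 ± 0.268, adjusted p = 1.17e-13). In OVCAR4 ResB the libraries (143, 359 and 394 TPM) overlapped those of OVCAR4 (270, 424 and 410 TPM). The fold change there was -0.98 ± 0.291 (adjusted p = 0.00754), and it was lost without replicate 2 (adjusted p = 0.379) or replicate 3 (adjusted p = 0.369) and in edgeR (adjusted p = 0.0661).

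GPX8 (chromosome 5, 55160171 to 55167297), an endoplasmic reticulum peroxidase, ranged less, from 19.1 ± 3.99 TPM in OVCAR3 to 77.3 ± 5.97 TPM in PEO4, and the libraries of each line overlapped those of the next in all 10 steps of that order. It was called in 1 of 7 pairs. PEA2 libraries were at 74.7, 66.7 and 57.9 TPM and PEA1 libraries at 41.3, 26.9 and 39.9, with no overlap (1.02 ± 0.219, adjusted p = 1.43e-05). In the other 6 pairs fold changes lay between -0.22 and 0.29. CDC20B, which overlaps GPX8 in the annotation, reached no more than 0.466 TPM in any library.

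GPX2 (chromosome 14, 64939158 to 64942745), known as the peroxidase of the gut epithelium, was hardly detected. Its highest library was at 0.257 TPM and all 3 libraries were listed at 0 in OVCAR3 ResB, OVCAR4, PEA1 and PEO4. DESeq2 gave it no adjusted p-value in any pair of lines, so GPX2 is not among the genes counted below for those pairs.

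Summed over the 5 peroxidases, OVCAR3 held 405 ± 17.9 TPM, OVCAR3 ResA 806 ± 25.4 and OVCAR3 ResB 741 ± 15.8 (SD, n = 3). GPX1 made up 14.4% ± 0.689 of that sum in OVCAR3, 42.6% ± 2.50 in OVCAR3 ResA and 0.0245% ± 0.0334 in OVCAR3 ResB. The summed level of the resistant lines was thus above that of OVCAR3 in both, with a different makeup. Over all lines the sum ran up to 1073 ± 282 TPM in OVCAR4 ResB, to which GPX4 gave 487 TPM and GPX3 299 TPM. GPX1 was the largest share in PEO6, at 51.1% ± 6.31.

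**Figure D2:**
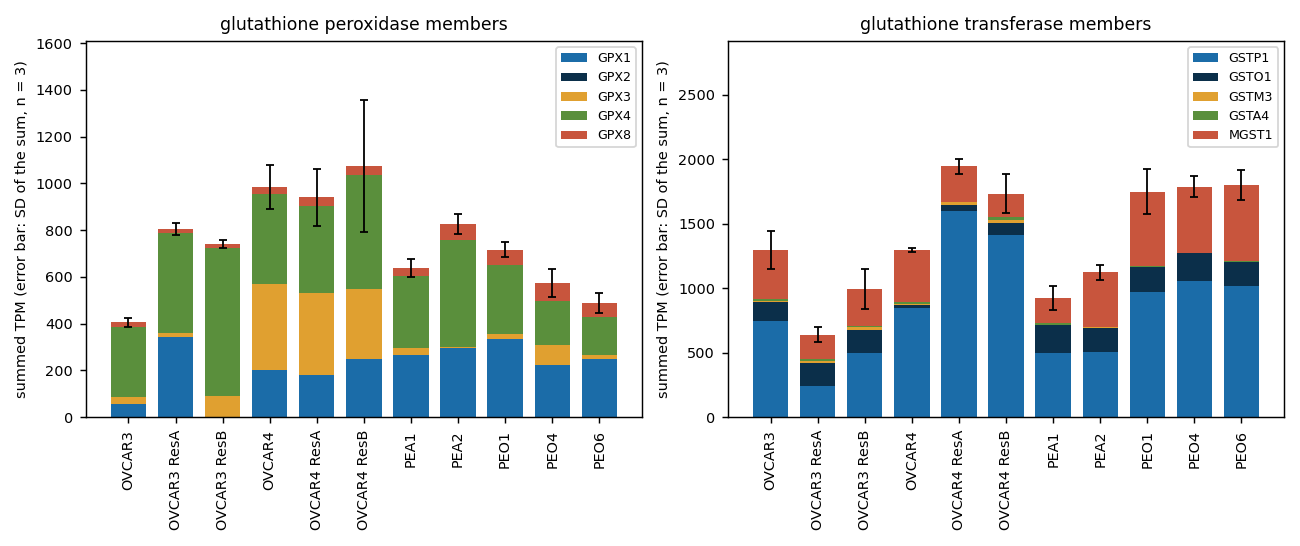
Summed TPM of the 5 peroxidases (left) and the 5 transferases (right) by line, stacked by gene as means of 3 libraries, with the SD of the sum as error bar. GPX1 is absent to the eye from the OVCAR3 ResB bar, whose sum of 741 TPM still exceeds the 405 TPM of OVCAR3; GSTP1 is the largest transferase segment in all 11 lines.

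GSTP1 (chromosome 11, 67583812 to 67586653) is the pi-class cytosolic transferase long studied in platinum response. It was the most abundant of the 5 transferases described here in all 11 lines. Line means ran from 245 ± 34.3 TPM in OVCAR3 ResA to 1602 ± 51.1 TPM in OVCAR4 ResA. It was called in 1 of 7 pairs, and there it was lower in the resistant line. OVCAR3 libraries were at 689, 822 and 735 TPM and OVCAR3 ResA libraries at 224, 285 and 226, with no overlap (log2 fold change -1.76 ± 0.0971, 3.39-fold lower, adjusted p = 3.14e-71). OVCAR3 ResB libraries, at 405, 598 and 503 TPM, also lay below those of OVCAR3, but the fold change of -0.69 ± 0.328 was not called (adjusted p = 0.245).

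For GSTP1 in the OVCAR4 family, the scale mattered. OVCAR4 libraries were at 852, 876 and 809 TPM, OVCAR4 ResA libraries at 1608, 1650 and 1548 and OVCAR4 ResB libraries at 1309, 1436 and 1485, with no overlap between any of the 3 lines. In counts scaled by DESeq2, the fold change was 0.39 ± 0.315 in OVCAR4 ResA (adjusted p = 0.492) and 0.15 ± 0.326 in OVCAR4 ResB (adjusted p = 0.813). On log2(TPM + 1) the median gene of these comparisons was itself shifted by 0.44 and 0.48, against -0.01 in DESeq2, and changes in TPM have to be read relative to that shift. Mitochondrial rRNA took 5.18%, 14.8% and 11.96% of counts in replicates 1, 2 and 3 of OVCAR4, 9.23%, 2.02% and 2.09% in OVCAR4 ResA and 13.1%, 2.47% and 2.39% in OVCAR4 ResB. Replicate 1 thus ran opposite to replicates 2 and 3, higher in the resistant lines where the others were lower. Its part in the results of this family was not tested. In the other families the shift was at most 0.14. Of 79 values for a gene and comparison, 6 had the opposite sign in TPM, namely GPX8 in OVCAR3 ResA, OVCAR3 ResB, OVCAR4 ResA and OVCAR4 ResB, and GPX1 and GPX4 in OVCAR4 ResB. None of these was called with all libraries.

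GSTO1 (chromosome 10, 104254173 to 104267455), an omega-class transferase that reduces dehydroascorbate and thiol adducts, was low in the OVCAR4 family and higher elsewhere. OVCAR4 libraries were at 29.1, 20.5 and 24.3 TPM, OVCAR4 ResA libraries at 52.0, 42.5 and 31.4 and OVCAR4 ResB libraries at 81.8, 100.2 and 109. All 3 lines were apart, and all lay under the other 8 lines, whose means ran from 144 ± 28.5 TPM in OVCAR3 to 223 ± 17.9 TPM in PEA1. It was higher in OVCAR4 ResB than in OVCAR4 by 1.40 ± 0.309 (2.64-fold, adjusted p = 0.000117), a call that was lost without replicate 2 (adjusted p = 0.0814) or replicate 3 (adjusted p = 0.142). In OVCAR4 ResA the change was 0.23 ± 0.376 and not called. The direct comparison of OVCAR4 ResB with OVCAR4 ResA gave 1.18 ± 0.205 (adjusted p = 1.01e-07).

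GSTM3 (chromosome 1, 109733937 to 109741038), a mu-class transferase, was the gene with the largest rise among the tested values. PEA1 libraries were at 1.63, 0.756 and 0.76 TPM and PEA2 libraries at 14.1, 12.9 and 15.2 TPM, with no overlap. The increase was 3.94 ± 0.322 on the log2 scale (15.3-fold, adjusted p = 1.06e-32). OVCAR3 ResB libraries, at 24.5, 23.1 and 34.2 TPM, were above those of OVCAR3 at 13.5, 10.8 and 10.5 (1.11 ± 0.322, adjusted p = 0.0106). That call was lost in edgeR (adjusted p = 0.069) and without replicate 1 (adjusted p = 0.128) or replicate 2 (adjusted p = 0.499). In the OVCAR4 family the libraries were at 12.02, 7.86 and 12.1 TPM in OVCAR4, 12.3, 29.4 and 26.3 in OVCAR4 ResA and 12.04, 33.1 and 34.8 in OVCAR4 ResB, so that replicate 1 of the resistant lines lay beside the OVCAR4 libraries and apart from replicates 2 and 3. Those replicate 1 libraries also held more mitochondrial rRNA (9.23% and 13.1% of counts, against 2.02% to 2.47% in replicates 2 and 3), and its part in the result was not tested. GSTM3 was not called there (0.49 ± 0.354 and 0.64 ± 0.361), but without replicate 1 it was called higher in both lines (adjusted p = 0.0073 and 1.64e-05). The PEO family held little of it, with line means from 0.94 ± 0.138 TPM in PEO4 to 2.39 ± 0.498 TPM in PEO6. PEO6 was above PEO4 by 1.27 ± 0.432 (adjusted p = 0.0223), a call lost without any 1 of the 3 replicates (adjusted p = 0.434, 0.199 and 0.0578). Other mu-class transferases are close in sequence, and reads could be shared among them.

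GSTA4 (chromosome 6, 52977953 to 52995284), an alpha-class transferase that conjugates 4-hydroxynonenal, a product of lipid peroxidation, had the largest fall among the tested values (GPX1 in the OVCAR3 family had no test), in the same pair. PEA1 libraries were at 12.7, 10.9 and 9.66 TPM and PEA2 libraries at 0.705, 0.739 and 0.938 TPM. The difference was -3.68 ± 0.419 (12.8-fold lower, adjusted p = 2.34e-17). PEO6 libraries, at 12.8, 10.2 and 7.07 TPM, were above PEO1 at 4.19, 4.56 and 2.43 (1.41 ± 0.353, adjusted p = 0.000326; 0.0825 without replicate 1). In PEO4 the fold change was -0.51 ± 0.41 and not called, and PEO6 against PEO4 gave 1.91 ± 0.423 (adjusted p = 0.000117; 0.0978 without replicate 1 and 0.0805 without replicate 2). OVCAR4 ResA libraries, at 5.77, 7.44 and 5.69 TPM, were below OVCAR4 at 11.1, 7.76 and 11.2. That change was -1.19 ± 0.413 (adjusted p = 0.0383), and it was lost in edgeR (adjusted p = 0.121) and without replicate 2 (adjusted p = 0.384) or replicate 3 (adjusted p = 0.955). OVCAR4 ResB was above OVCAR4 ResA by 1.31 ± 0.224 (adjusted p = 6.86e-08).

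MGST1 (chromosome 12, 16347115 to 16593331), a transferase and peroxidase of the endoplasmic reticulum and mitochondrial outer membrane, was lower in 3 resistant lines and higher in 1. OVCAR3 libraries were at 329, 440 and 366 TPM and OVCAR3 ResA libraries at 157, 218 and 188, with no overlap (-1.15 ± 0.101, adjusted p = 3.03e-28). OVCAR3 ResB libraries, at 288, 286 and 279 TPM, were below OVCAR3 as well, at -0.50 ± 0.328, which was not called. In the OVCAR4 family the libraries were at 398, 366 and 452 TPM in OVCAR4, at 243, 284 and 296 in OVCAR4 ResA and at 149, 193 and 211 in OVCAR4 ResB, with all 3 lines apart. The fall was 1.10 ± 0.302 in OVCAR4 ResA, adjusted p = 0.00472, and 1.74 ± 0.307 in OVCAR4 ResB, adjusted p = 6.1e-07. In OVCAR4 ResA it was lost in edgeR (adjusted p = 0.0968) and without replicate 2 (adjusted p = 0.341) or replicate 3 (adjusted p = 0.612). MGST1 was higher in PEA2, with libraries at 478, 406 and 375 TPM against 196, 208 and 184 in PEA1 (1.21 ± 0.234, adjusted p = 1.25e-06). The PEO lines were at 580 ± 91.0, 514 ± 98.7 and 583 ± 79.7 TPM, with overlapping libraries and no call. LMO3, which overlaps MGST1 in the annotation, reached 136 TPM in a library, and the strand setting of the counting was not given.

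**Figure D3:**
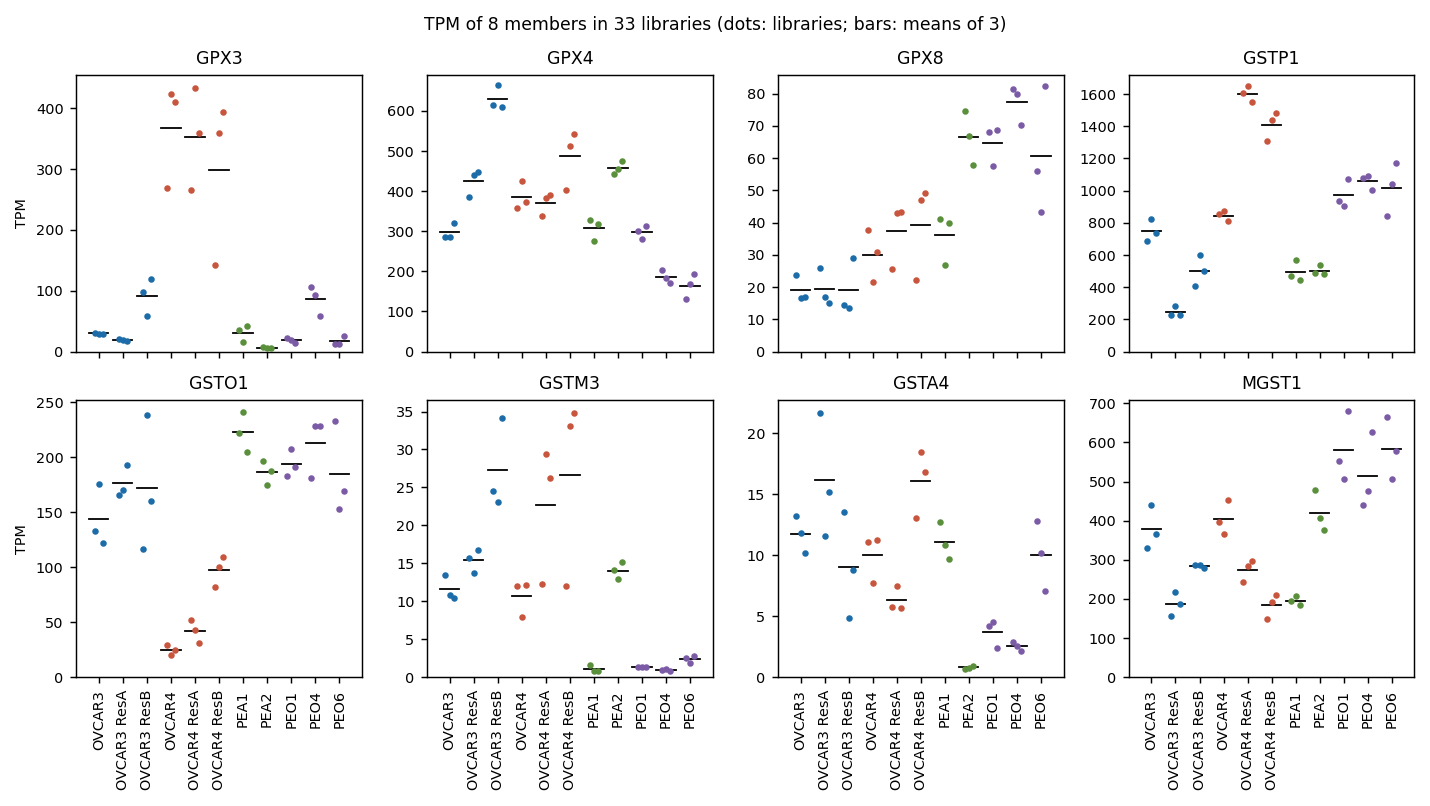
TPM (linear axes from 0) of 8 genes in each of the 33 libraries by line, with a bar at the mean of 3 and colours for the 4 families; GPX1 is plotted separately and GPX2 stayed at or below 0.257 TPM. GPX3 stands high and GSTO1 low in the OVCAR4 family, GSTM3 and GSTA4 change places between PEA1 and PEA2, and GSTP1 is lowest in OVCAR3 ResA.

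Over the 7 resistant-sensitive pairs, the fits gave an adjusted p-value to 61 combinations of gene and pair, leaving out GPX1 in the OVCAR3 family and GPX2 throughout. Of these 10 were called higher in the resistant line, 12 lower and 39 not called. Among all tested genes, 7.67% to 47% were called in a pair. Pairs of the same family share the libraries of its sensitive line, so the combinations are not independent. None of the 10 genes moved one way in every pair by these calls.

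Each pair is read against the share of all tested genes called in it. OVCAR3 ResA had 4 of 8 genes called, 1 higher and 3 lower, where 44.9% of all genes were called (22% higher and 22.9% lower). In OVCAR3 ResB, 2 of 8 were called, both higher, against 7.67% of all genes (4.1% higher and 3.57% lower). OVCAR4 ResA had 2 of 9 called, both lower, against 11.9% (6.68% higher and 5.22% lower). OVCAR4 ResB had 1 higher and 2 lower of 9, against 17.9% (9.09% higher and 8.77% lower). The shares among the 8 or 9 genes rest on few calls, and none of them was tested against the background.

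PEA2 held the most calls of the 7 pairs, 4 higher and 2 lower of 9, where 47% of all genes were called (23.3% higher and 23.8% lower). PEO4 had 1 higher and 2 lower of 9, against 33.3% (16.6% higher and 16.7% lower), and PEO6 had 1 of each, against 41.4% (21.2% higher and 20.3% lower). In PEO6 the share of these genes called was below that of all genes, but it rests on 2 calls and was not tested. The median log2 fold change of the tested genes was -0.59 in OVCAR4 ResA and 0.27 in PEA2, with -0.01 and -0.02 over all genes. These were the extremes. In the other pairs it was 0.009 in OVCAR3 ResA, -0.03 in OVCAR3 ResB, -0.22 in OVCAR4 ResB, -0.14 in PEO4 and -0.11 in PEO6.

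**Figure D4:**
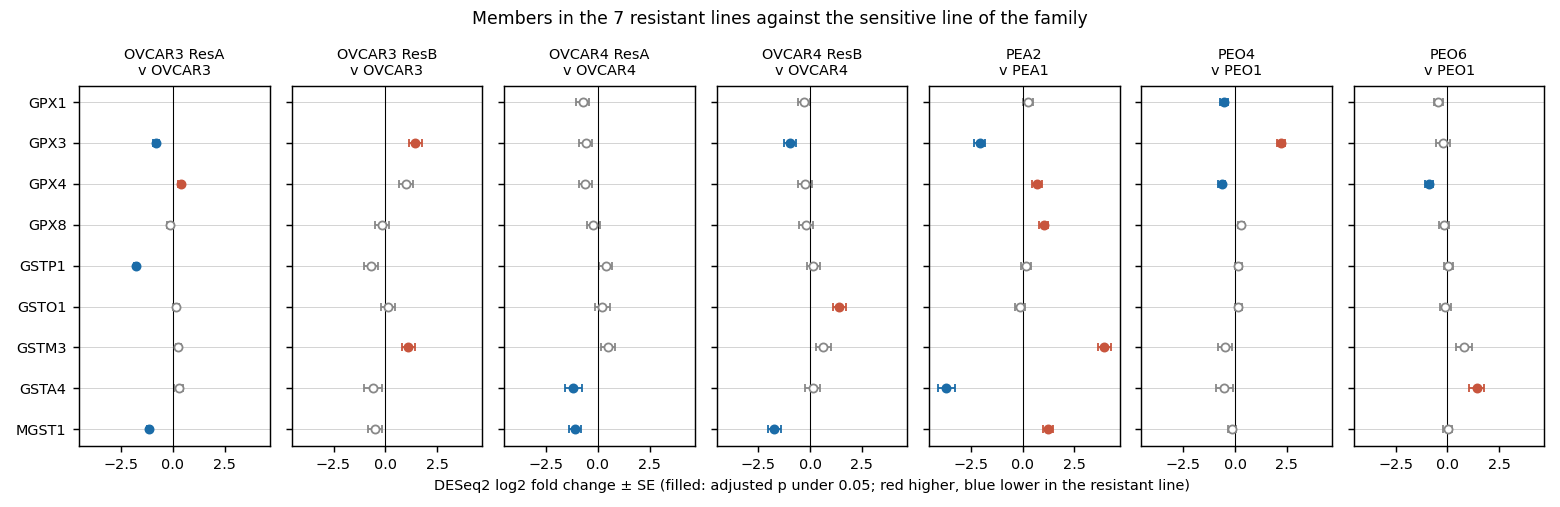
DESeq2 log2 fold change ± SE (x axis) of 9 genes in the 7 resistant lines against the sensitive line of their family; filled points have an adjusted p under 0.05, red higher and blue lower, and GPX1 is left out in the OVCAR3 family. The widest values are GSTM3 at 3.94 and GSTA4 at -3.68, both in PEA2, and GPX3 lies on both sides of 0.

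Sister resistant lines differed from each other. OVCAR4 ResB against OVCAR4 ResA had 4 genes called higher and 2 lower of 9, where 32.8% of all genes were called (16.2% higher and 16.5% lower). GPX1 (0.41 ± 0.152, adjusted p = 0.0238), GPX4 (0.34 ± 0.085, adjusted p = 0.000399), GSTO1 and GSTA4 were higher in OVCAR4 ResB. GSTP1 (-0.23 ± 0.0844, adjusted p = 0.023) and MGST1 (-0.63 ± 0.0931, adjusted p = 3.29e-10) were lower. GPX1, GPX4 and GSTP1 were not called without the replicate block (adjusted p = 0.351, 0.116 and 0.674). Without replicate 2 the same 3 calls were lost (adjusted p = 0.296, 0.178 and 0.578). GSTP1 was also lost without replicate 1 (adjusted p = 0.0714) and in edgeR (adjusted p = 0.0738), and GPX1 and GPX4 without replicate 3 (adjusted p = 0.366 and 0.0527). GPX3 passed the threshold only without replicate 3 (adjusted p = 0.000495). PEO6 against PEO4 had GPX3 lower and GSTM3 and GSTA4 higher, 3 of 9, against 18.2% of all genes (9.86% higher and 8.33% lower).

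For OVCAR3 ResB against OVCAR3 ResA the levels are set side by side with no test. Besides GPX1, libraries of the lines did not overlap for GPX3 (92.1 against 18.7 TPM on average), GPX4 (629 against 425), GSTP1 (502 against 245), GSTM3 (27.3 against 15.4) and MGST1 (284 against 188). All of these were higher in OVCAR3 ResB, opposite to GPX1. The share of all genes whose libraries did not overlap between these lines was not computed, so the list describes levels only. GPX8, GSTO1 and GSTA4 overlapped.

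With the line as the unit (summed replicates, family as a covariate), none of the 9 genes with a test (GPX2 among them, GPX1 left out) differed between 7 resistant and 4 sensitive lines by DESeq2, where 0.286% of all genes were called (0.13% higher and 0.156% lower). In that fit 1 gene, GSTM3, was at an unadjusted p under 0.05 (1.06 ± 0.534, adjusted p = 0.825), and edgeR called 0. Apart from GPX2, the SEs ran from 0.257 for GPX8 to 0.657 for GPX3.

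Levels of the genes were compared across the 11 lines as log2(TPM + 1) line means. The pair most alike was GPX4 and GSTM3 (Pearson r = 0.79, Spearman rho = 0.82, n = 11), and it stayed so over the 8 lines outside the OVCAR3 family (r = 0.77). GPX3 and GSTO1 were the most opposed (r = -0.77, and -0.80 over 8 lines), with the OVCAR4 family high in GPX3 and low in GSTO1. GPX1 and GPX3 had r = -0.18 over 11 lines and -0.79 over the 8 lines. The lines share origins within families, and these values are descriptions only.

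Other genes of glutathione use were looked at as lists. Of 22 further peroxidase and transferase genes in the table, 12 to 15 had an adjusted p-value in a pair. In OVCAR3 ResA 2 were higher and 6 lower of 15, where 44.9% of all genes were called, with a median log2 fold change of -1.01 against -0.02 over all genes. In OVCAR3 ResB 0 of 14 were called by DESeq2 or by edgeR, and 4 were at an unadjusted p under 0.05, against 7.67% of all genes called. OVCAR4 ResA had 0 higher and 4 lower of 12 (11.9% of all genes called), and OVCAR4 ResB 1 higher and 4 lower of 13 (17.9%). PEA2 had 4 higher and 2 lower of 12 (47% of all genes called), PEO4 2 higher and 1 lower of 13 (33.3%), and PEO6 5 higher and 0 lower of 14 (41.4%).

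MGST2, a microsomal transferase that also makes leukotriene C4, was the member of that list called most often, in 6 of the 9 comparisons. It fell in OVCAR3 ResA by 1.01 ± 0.113 (adjusted p = 7.01e-18) and rose in PEO6 by 1.06 ± 0.266 (adjusted p = 0.000328). GSTO2, the omega-class paralog of GSTO1, was at 42.6 ± 5.93 TPM in OVCAR4, 7.24 ± 2.15 in OVCAR4 ResA and 21.0 ± 3.45 in OVCAR4 ResB (SD, n = 3), where GSTO1 had changed by 0.23 and 1.40. The change of GSTO2 was -3.06 ± 0.396 in OVCAR4 ResA (adjusted p = 2.2e-12) and -1.52 ± 0.319 in OVCAR4 ResB (adjusted p = 4.45e-05). GSTM2, a mu-class relative of GSTM3, fell by 1.19 ± 0.231 in OVCAR3 ResA (adjusted p = 1.54e-06) and rose in PEO6 by 1.67 ± 0.304 (adjusted p = 3.6e-07), and its reads may be shared with other mu-class genes.

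Among 21 genes of glutathione supply and recycling, PEA2 had 7 higher and 5 lower of 19 (47% of all genes called), OVCAR3 ResA 3 higher and 7 lower of 20 (44.9%) and PEO6 5 and 5 of 20 (41.4%). PEO4 had 5 and 3 of 20 (33.3% of all genes called), OVCAR4 ResA 2 and 5 of 20 (11.9%) and OVCAR4 ResB 3 and 1 of 19 (17.9%). In OVCAR3 ResB 0 of 20 were called by DESeq2 or by edgeR, with 3 at an unadjusted p under 0.05, against 7.67% of all genes called. OPLAH, which opens 5-oxoproline to glutamate, went from 0.0233 ± 0.00443 TPM in PEA1 to 7.44 ± 1.24 TPM in PEA2 (8.37 ± 0.718, adjusted p = 6.9e-30). GGT1, a surface enzyme that breaks down glutathione outside the cell, went the other way, from 42.6 ± 9.84 to 2.29 ± 0.554 TPM (-4.01 ± 0.28, adjusted p = 1.07e-44). GGT1 and GGT5 have close copies, so their counts are uncertain. GGT5 rose in OVCAR4 ResB from 0.216 ± 0.11 to 3.51 ± 0.597 TPM (3.54 ± 0.681, adjusted p = 6.04e-06).

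GPX1 to GPX4 need the machinery that inserts selenocysteine. Of its 8 genes, 0 to 5 were called in a pair, with 5 in PEA2 (2 higher, 3 lower; 47% of all genes), 3 in OVCAR3 ResA (2 higher, 1 lower; 44.9% of all genes) and 2 in PEO6 (1 higher, 1 lower; 41.4% of all genes). There was 1 higher in each of OVCAR4 ResA and OVCAR4 ResB, where 11.9% and 17.9% of all genes were called. PEO4 had 0 by DESeq2 and by edgeR, with 1 at an unadjusted p under 0.05, against 33.3% of all genes. In OVCAR3 ResB 0 of 8 were called by DESeq2 or edgeR and 0 were at an unadjusted p under 0.05, in a pair where 7.67% of all genes were called. SECISBP2L, a paralog of the factor that binds the selenocysteine insertion element, was called in 4 comparisons and PSTK, a kinase on the path to selenocysteyl-tRNA, in 2. PSTK fell in PEA2 by 2.03 ± 0.386 (adjusted p = 9.01e-07). SEPSECS, the enzyme that makes the selenocysteyl-tRNA, rose in PEO6 by 1.15 ± 0.234 (adjusted p = 7.22e-06).

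Of 19 other selenoprotein genes, OVCAR3 ResA had 6 higher and 6 lower of 17 (44.9% of all genes called), PEA2 8 higher and 2 lower of 16 (47%) and PEO4 1 higher and 7 lower of 16 (33.3%). PEO6 had 1 higher and 4 lower of 15 (41.4% of all genes called), OVCAR4 ResA and OVCAR4 ResB 1 higher and 2 lower of 15 each (11.9% and 17.9%), and OVCAR3 ResB 0 higher and 2 lower of 17 (7.67%). SEPP1, the selenium carrier secreted into plasma, was at 26.8 ± 17.6 TPM in OVCAR3, 0.0965 ± 0.0837 in OVCAR3 ResA and 0.643 ± 0.746 in OVCAR3 ResB (SD, n = 3). The change was -8.50 ± 1.06 in OVCAR3 ResA (adjusted p = 1.94e-14) and -5.98 ± 0.535 in OVCAR3 ResB (adjusted p = 4.94e-26). SEPP1 rose in PEO4 by 2.46 ± 0.301 (adjusted p = 8.06e-15) and in PEO6 by 2.92 ± 0.355 (adjusted p = 4.53e-15). SEPN1, an endoplasmic reticulum selenoprotein, was called in 7 of the 9 comparisons, higher in 4 and lower in 3, and SELT, of the same compartment, in 5.

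Between the sister lines of the OVCAR4 family 32.8% of all genes were called, and 18.2% between PEO4 and PEO6. OVCAR4 ResB against OVCAR4 ResA had 4 higher and 4 lower of 12 further peroxidase and transferase genes, 5 higher and 0 lower of 20 genes of glutathione supply, and 1 higher and 3 lower of 15 other selenoproteins. None of the 8 selenocysteine genes was called there by DESeq2 or edgeR, and 0 were at an unadjusted p under 0.05. PEO6 against PEO4 had 4 higher and 0 lower of 14, 3 higher and 3 lower of 20, and 0 higher and 1 lower of 15 in the same order, and 1 higher of the 8 selenocysteine genes.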

How the data were processed

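Gene tables of 33 libraries (mRNA, salmon in the nf-core RNA-seq pipeline, GRCh38, per the study's methods) were used. The estimated counts deposited by the authors are not normalised, and the TPM deposited by the authors is scaled to library and length and carries no depth. The strand setting was not given in the sources used here. Counts were rounded and tested in R 4.3.3 with DESeq2 1.42.0 (Wald test, median-of-ratios size factors, Benjamini-Hochberg adjustment over all genes of a comparison, threshold 0.05), fitting the 6 libraries of each comparison with the replicate number as a block, as in the study. Alternatives used edgeR 4.0.16, limma 3.58.1, TMM factors, a filter of 10 counts in 3 libraries, no block and leaving out each replicate. DESeq2 with the block, edgeR and limma were tried on counts simulated from PEA1 levels. The simulation gave every gene the same spread and held no replicate effect, so it does not cover the differences between replicates seen here. Same-numbered libraries deviated together, with all 3 correlations over 0.1, in 2 of 10 comparisons (OVCAR3 ResA against OVCAR3, and OVCAR4 ResB against OVCAR4 ResA). All 3 were negative in OVCAR4 ResA against OVCAR4 (-0.61, -0.49 and -0.23) and OVCAR4 ResB against OVCAR4 (-0.58, -0.51 and -0.13). The same held in PEO6 against PEO4 (-0.42, -0.21 and -0.50). The genes, lists, motifs and tests were chosen with earlier results of these data known. All 10 genes are named, with the 5 genes most like GPX1 over the lines, its 5 neighbours on each side and up to 3 genes per list called in most comparisons. Promoters and positions are from RefSeq GRCh38.p14, with a sequence for 10 of 10 genes. The motifs were searched on both strands. Libraries differed by more than counting noise within lines (chi-square per degree of freedom 30.6 to 534).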

Additional observations from a re-analysis of the deposited data

Results flagged for a closer look

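Of the results above, 9 were picked out because resistant lines of the same family differed by their own test (DESeq2 on 6 libraries, adjusted over all genes). In OVCAR4 ResB against OVCAR4 ResA the log2 fold change was 0.41 for GPX1, 0.34 for GPX4, -0.23 for GSTP1, 1.18 for GSTO1, 1.31 for GSTA4 and -0.63 for MGST1. In PEO6 against PEO4 it was -2.45 for GPX3, 1.27 for GSTM3 and 1.91 for GSTA4. These were 6 of 9 and 3 of 9 genes, where 32.8% and 18.2% of all genes were called. Between the OVCAR4 lines, GPX1, GPX4 and GSTP1 were not called without the replicate block. Between the PEO lines, GSTM3 was lost with any 1 replicate left out and GSTA4 without replicate 1 or replicate 2. Relative to the sensitive line of the family, GSTA4 went from a call of lower in OVCAR4 ResA to no call in OVCAR4 ResB, and from no call in PEO4 to a call of higher in PEO6. With 3 libraries per line, no search for a single outlying library within a line was made.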

How the results depend on the processing

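Of 88 combinations of gene and comparison, 56 stayed on their side of the threshold under every alternative run. Where the main fit or the alternative gave a call, 0 values reversed direction. Values with no call could change sign, as GPX8 in OVCAR4 ResA did, from -0.22 to 0.30 in limma on log2(TPM + 1). The number of genes called in OVCAR3 ResB, 2, was 1 in edgeR and 0 in all 3 limma fits on TPM, and 0 to 3 with a replicate left out. In OVCAR4 ResA, 2 became 4 with no replicate block, 0 in edgeR and 0 in the limma fits, and 0 to 6 with a replicate left out, where 6 came without replicate 1. In OVCAR4 ResB, 3 became 0 in the limma fits and 1 to 5 with a replicate left out. PEO4 (3) gave 1 to 5 and PEO6 (2) gave 1 to 2 with a replicate left out. OVCAR4 ResB against OVCAR4 ResA (6) gave 3 with no replicate block and 3 to 5 with a replicate left out, and PEO6 against PEO4 (3) gave 0 in limma without a filter and 1 to 3. In OVCAR3 ResA 4 became 3 with no replicate block, where GPX4 was lost, and was 4 to 5 under the other alternatives. PEA2 (6) gave 5 to 6. At the level of lines the count was 0 under each alternative. The cause of these shifts was not tested. The GPX1 ratio of OVCAR3 ResB to OVCAR3 ResA, -10.89 on the log2 scale, was -10.16 in scaled counts, -10.28 without replicate 1 and -10.59 without replicate 3. It rests on 8 counts in OVCAR3 ResB, 7 of them in replicate 2. Without replicate 2 the OVCAR3 ResB libraries held 0 and 1 counts, and the value of -10.22 there was set by a floor of 3 counts per library in scaled counts, so it does not bear on stability. A sum of GPX1 and its copies was not run, because no row of the table carried a copy of it. With no replicate block, GPX1 (adjusted p = 0.0227) and GPX4 (0.0475) in OVCAR4 ResA and GSTM3 in PEO6 (0.0314) passed the threshold. Leaving out 1 replicate let GSTO1 in OVCAR3 ResA pass without replicate 2 (0.038), and GPX3 in OVCAR4 ResA without replicate 1 (9.86e-06), GPX8 and MGST1 in PEO4 (0.0423 and 0.0274) and GPX8 in PEO6 against PEO4 (0.0481) without replicate 3. Apart from the changes without the block given here and those named in the report, the block changed no call. Of the lists (further peroxidases and transferases, glutathione supply, selenocysteine genes and other selenoproteins, in that order), edgeR called 1, 0, 0 and 0 genes in OVCAR4 ResA where DESeq2 called 4, 7, 1 and 3, and 4, 2, 0 and 1 in OVCAR4 ResB where DESeq2 called 5, 4, 1 and 3. The other list counts that differed by more than 1.5 times were 5 against 3 further peroxidases and transferases in PEO4, 8 against 5 supply genes in OVCAR4 ResB against OVCAR4 ResA, and, for other selenoproteins, 1 against 2 in OVCAR3 ResB and 0 against 1 in PEO6 against PEO4, with edgeR first.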
